A study of Mus musculus with 11 samples.

Results

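The genes described here are 10 enzymes that modify collagen: the lysyl oxidases Lox, Loxl1, Loxl2, Loxl3 and Loxl4, the lysyl hydroxylases Plod1, Plod2 and Plod3, and the prolyl 4-hydroxylase catalytic subunits P4ha1 and P4ha3. They were taken by gene symbol from a table of 55513 mouse genes, and all 10 passed the filter on low counts in each comparison. The hearts came from 11 female C57BL/6J mice aged 8 weeks. In 8 of them the left anterior descending coronary artery was ligated permanently, and a myocardial infarction (MI) follows. Among them, 4 mice (A116, A117, A119 and A120) received the ADAM10 inhibitor GI254023X (A10i, 100 mg/kg, by osmotic minipump) and 4 (A105, A127, A128 and A129) received the solvent DMSO. The other 3 mice (S1 to S3) were sham-operated and received DMSO, so no group was free of the solvent. RNA was taken on day 3 after surgery, from infarct and border zone in MI mice and from healthy heart in Sham mice, so infarction and the sampled zone cannot be told apart in a comparison with Sham.

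Collagen is finished in 2 places. Inside the cell, prolyl 4-hydroxylases add the hydroxyl groups that keep the triple helix stable at body temperature, and lysyl hydroxylases mark the lysines from which stable crosslinks are later built. Outside the cell, lysyl oxidases, copper enzymes, oxidise lysines of collagen and elastin so that neighbouring molecules become covalently linked. The hydroxylases need oxygen, iron, 2-oxoglutarate and ascorbate. In an infarct, a collagen scar has to replace dead muscle before the wall stretches or ruptures, and crosslinking sets how stiff and how strong that scar becomes.

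Totals per library lay between 21702659 and 29511782 counts. Libraries of 1 group differed by more than counting error, most of all DMSO mice A105 and A129, whose counts gave a chi-square of 60.8 per degree of freedom. The tissue was checked with marker lists. The summed level of 10 cardiomyocyte markers was 87000 to 88300 CPM (counts scaled to the TMM effective library size) in Sham, 40900 to 61500 in DMSO and 49400 to 68000 in A10i mice. Those of 7 activated fibroblast markers were 164 to 205, 305 to 802 and 496 to 1260 CPM, those of 8 macrophage markers 320 to 351, 541 to 923 and 690 to 1320 CPM, and those of 9 neutrophil markers 1.74 to 3.05, 88 to 178 and 15.8 to 60.3 CPM. In Sham mice 1 of the 9 neutrophil markers was at 0 in every library. The part of these differences in the results below was not tested, and in whole tissue fewer cells of a type and less RNA per cell cannot be told apart.

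The lysyl oxidases rose after MI as a whole family. In edgeR's quasi-likelihood test (adjusted p under 0.01 over all genes), 6 of the 10 enzymes were higher in DMSO than in Sham mice, namely all 5 lysyl oxidases and Plod3, against 12.9% of the 17119 genes tested. In A10i against Sham mice 9 of 10 were higher, all but Plod1, against 13.8% of 17004 genes. No member was lower in either comparison, where 9.6% and 9.09% of all genes were. Between A10i and DMSO mice no member passed the test, where 0% of the 16793 genes tested did in either direction. The median log2 fold change of the members was 1.73 and 1.92 over Sham, where that of all genes was 0.002 and -0.006. Both comparisons use the same 3 Sham libraries and are therefore not independent. The groups did not overlap for 8 and 9 of 10 members, with the MI mice higher, against 25.6% and 24.8% of all genes.

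**Figure D1:**
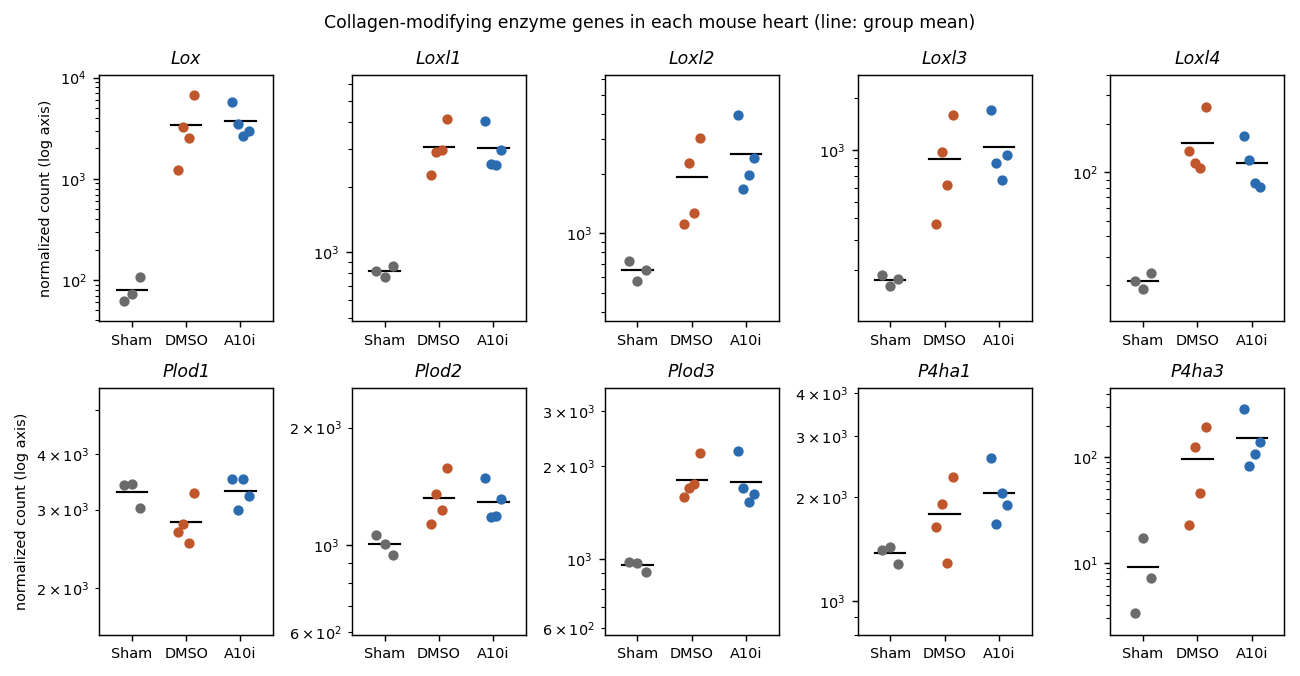
Normalized count (log axis) of each of the 10 enzyme genes in each heart, 1 point a mouse, with a line at the group mean. The lysyl oxidases of the upper row lie above Sham in all 8 infarcted hearts, Lox by the widest margin, whereas Plod1 and P4ha1 overlap with Sham in the DMSO mice.

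Lox (ENSMUSG00000024529, chromosome 18, 52516067 to 52529867 in mm10, minus strand), the founding enzyme of the family and the main crosslinker of fibrillar collagen, showed the widest change. Sham mice had 62.3, 72.1 and 106 normalized counts (S1 to S3). The DMSO mice A105, A127, A128 and A129 had 1220, 3250, 2560 and 6710. The A10i mice A116, A117, A119 and A120 had 5760, 3460, 2650 and 2970. Every infarcted heart was therefore more than 10 times above every Sham heart, while the DMSO mice spanned a wide range with A105 lowest and A129 highest. Lox was 42.6-fold higher in DMSO than in Sham mice (log2 fold change 5.41, 95% interval 3.92 to 6.91, edgeR adjusted p = 0.000647) and 46.3-fold higher in A10i mice (5.53, 4.70 to 6.37, adjusted p = 8.63e-05).

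Loxl1 (ENSMUSG00000032334, chromosome 9, 58287738 to 58313186), which acts on elastin as well as collagen, had 820, 768 and 864 normalized counts in Sham mice. It had 2280, 2900, 2970 and 4140 in DMSO mice and 4050, 2570, 2520 and 2980 in A10i mice, in the order used for Lox. The spread within groups was the narrowest of the 5 lysyl oxidases. Loxl1 was 3.74-fold higher in DMSO (adjusted p = 0.000227) and 3.72-fold higher in A10i mice (adjusted p = 0.000199) than in Sham mice.

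Loxl2 (ENSMUSG00000034205, chromosome 14, 69609068 to 69695834), an oxidase known for crosslinking in fibrotic hearts, had 721, 573 and 654 normalized counts in Sham, 1110, 2270, 1260 and 3030 in DMSO and 3950, 1670, 1970 and 2390 in A10i mice. A105 and A128 lay less than 2-fold above the highest Sham heart, and A116 stood highest of all 11 hearts. Its log2 fold change over Sham was 1.56 in DMSO mice (SE 0.34, adjusted p = 0.00701) and 1.95 in A10i mice (SE 0.29, adjusted p = 0.00154). The first of these calls did not hold without any 1 of the Sham libraries (adjusted p between 0.0294 and 0.0345), without A127 (0.0163) or without A129 (0.016).

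Loxl3 (ENSMUSG00000000693, chromosome 6, 83034173 to 83052562) had 188, 161 and 177 normalized counts in Sham, 372, 974, 621 and 1590 in DMSO and 1710, 838, 671 and 927 in A10i mice. The mice ranked much as for Lox, with A105 lowest and A129 highest in the DMSO group and A116 highest in the A10i group. Loxl3 was 5.06-fold (adjusted p = 0.00414) and 5.93-fold (adjusted p = 0.000863) higher than in Sham mice, and the first call was lost without any 1 Sham library (adjusted p 0.0229 to 0.0242). Of its exonic bases, 11.6% overlap with Htra2 on the other strand, and the strand setting of the counting is not given in the sources used here, so its level is uncertain to that extent.

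Loxl4 (ENSMUSG00000025185, chromosome 19, 42593982 to 42612813), the member with the lowest level of the family, departed from that ranking. Its level per length (FPKM, the TMM-scaled CPM divided by the exonic length in kilobases) was 0.196, 0.176 and 0.22 in Sham, 1.27, 1.06, 0.98 and 2.34 in DMSO and 1.57, 1.1, 0.795 and 0.754 in A10i mice. A105, the lowest DMSO mouse for the other 4 lysyl oxidases, was the second highest here. Loxl4 was 7.09-fold (adjusted p = 0.000523) and 5.35-fold (adjusted p = 0.000401) higher than in Sham mice.

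The makeup of the family changed with MI. Levels of different genes were compared as FPKM. In Sham mice Loxl1 made up 56.4 to 59.2% of the summed lysyl oxidase FPKM, Loxl2 26.9 to 30.2% and Lox 2.96 to 4.93%. In MI mice the share of Lox was 20.2 to 38.7% (DMSO) and 28.4 to 35.8% (A10i), that of Loxl1 was 34.7 to 54.6% and 34.3 to 41.4%, and that of Loxl2 was 12.8 to 19% and 15.3 to 20.4%. Lox thus went from the fourth to the second place in the family, and Loxl2 from the second to the third by mean FPKM. The shares of these 3 genes did not overlap between Sham and MI hearts, while those of Loxl3 did, at 8.55 to 9.26%, 6.39 to 9.54% and 7.88 to 10.4%. The summed level of the family was 15.4 to 17.6 FPKM in Sham, 49.5 to 142 in DMSO and 72.4 to 140 in A10i mice.

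**Figure D2:**
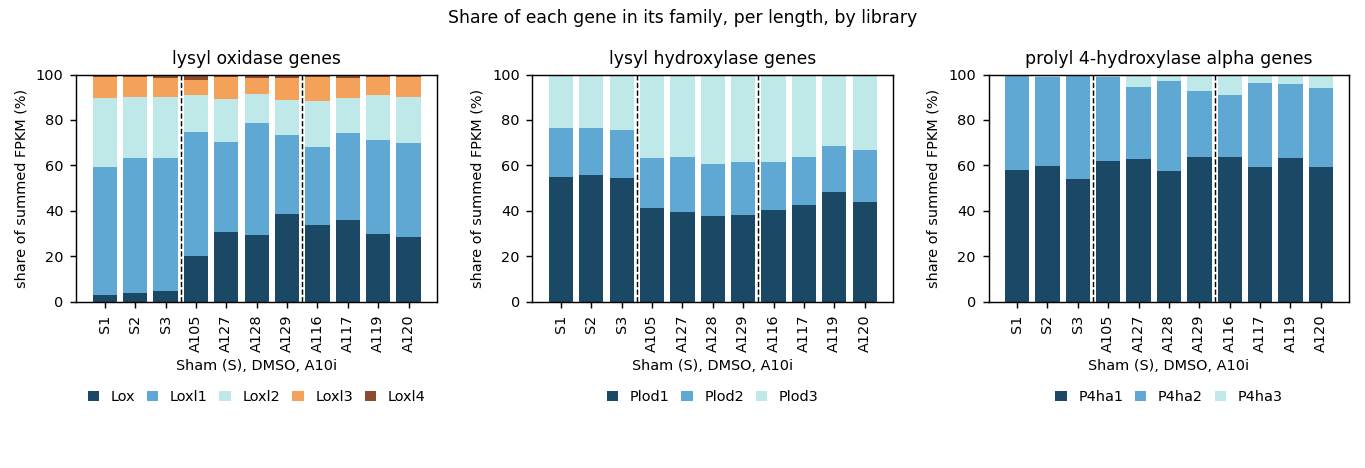
Share of each gene in the summed FPKM of its family (stacked bars, %), 1 bar a heart, with dashed lines between Sham, DMSO and A10i mice. The Lox share of 2.96 to 4.93% in Sham mice becomes at least 20.2% in every infarcted heart, and the Plod3 share is larger and the Plod1 share smaller after MI.

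Of the lysyl hydroxylases, Plod3 passed the test against Sham in both MI groups, Plod2 in A10i mice and Plod1 in neither. Between the treatments none did, where 0% of all genes did. Plod1 (ENSMUSG00000019055, chromosome 4, 147909753 to 147936767), which hydroxylates lysines of the helical part of collagen, had 3410, 3420 and 3030 normalized counts in Sham, 2680, 2780, 2520 and 3270 in DMSO and 3510, 3000, 3510 and 3220 in A10i mice. Of the DMSO mice, A129 lay inside the Sham range and the other 3 below it, whereas the A10i mice lay around it. The log2 fold change over Sham was -0.23 in DMSO (95% interval -0.47 to 0, adjusted p = 0.103) and 0.01 in A10i mice (-0.17 to 0.19, adjusted p = 0.912), and neither passed the test.

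Plod2 (ENSMUSG00000032374, chromosome 9, 92542223 to 92608428), the hydroxylase of the collagen ends and a known enzyme of scar crosslinks, had 1060, 1010 and 944 normalized counts in Sham, 1130, 1350, 1230 and 1580 in DMSO and 1490, 1180, 1190 and 1310 in A10i mice. Every MI heart was above every Sham heart, by a small margin. The log2 fold changes were near to each other, 0.38 (SE 0.12, adjusted p = 0.0267) and 0.37 (SE 0.09, adjusted p = 0.00982), and only the second passed 0.01. That call was lost without any 1 Sham library (adjusted p 0.0277 to 0.0537) and without A120 (0.0257).

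Plod3 (ENSMUSG00000004846, chromosome 5, 136987019 to 136996648), which also attaches sugars to hydroxylysine, was the only lysyl hydroxylase that passed the test in both comparisons with Sham. It had 977, 971 and 911 normalized counts in Sham, 1580, 1690, 1750 and 2200 in DMSO and 2230, 1690, 1530 and 1620 in A10i mice. The groups were far apart relative to their spread. The rise was 1.88-fold (adjusted p = 0.000516) and 1.86-fold (adjusted p = 0.000851), and it passed 0.01 under every alternative that was run. Plod3 shares 11.7% of its exonic bases with Znhit1 on the other strand, with the same uncertainty as for Loxl3. Within the summed lysyl hydroxylase FPKM, Plod1 held 54.3 to 55.6% in Sham, 37.7 to 41.4% in DMSO and 40.2 to 48.2% in A10i mice, and Plod3 held 23.6 to 24.4%, 36.1 to 39.3% and 31.3 to 38.3%. The ranges of Plod2 were 20.7 to 21.5%, 21.9 to 24.2% and 20.5 to 22.5%.

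P4ha1 (ENSMUSG00000019916, chromosome 10, 59323296 to 59373304), the catalytic subunit of the most widely expressed prolyl 4-hydroxylase, had 1410, 1440 and 1280 normalized counts in Sham, 1640, 1910, 1290 and 2290 in DMSO and 2590, 1670, 2050 and 1900 in A10i mice. DMSO mouse A128 lay inside the Sham range, and all 4 A10i mice lay above it. The log2 fold change was 0.36 in DMSO mice (95% interval -0.03 to 0.76, adjusted p = 0.127) and 0.58 in A10i mice (0.28 to 0.89, adjusted p = 0.00872). The second call was lost without any 1 Sham library (adjusted p 0.0253 to 0.0414), without A119 (0.0119) and without A120 (0.0156), and the difference between both MI groups is the direct comparison given below.

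P4ha3 (ENSMUSG00000051048, chromosome 7, 100285520 to 100319699), a rarer catalytic subunit, was near the limit of detection in Sham hearts, with 3, 18 and 7 raw counts. The 18 counts came from S2. Its normalized counts were 3.34, 17.1 and 7.2 in Sham, 22.7, 125, 45.5 and 196 in DMSO and 285, 82, 107 and 141 in A10i mice. A105 lay close to the highest Sham heart, and the 4 DMSO mice spanned a range of more than 8-fold. P4ha3 was 16-fold higher in A10i than in Sham mice (log2 fold change 4, 95% interval 2.6 to 5.41, adjusted p = 0.00163). In DMSO mice the log2 fold change of 3.34 (1.44 to 5.25) missed the threshold (adjusted p = 0.0131), and without A105 it was 3.64 and passed (adjusted p = 0.00332). Without S2 the log2 fold changes were 4.82 in A10i (adjusted p = 0.0044) and 4.16 in DMSO mice (adjusted p = 0.0272). P4ha2, the third catalytic subunit of this family and not a member by the rule, had log2 fold changes of -0.07 (adjusted p = 0.53) and 0.09 (adjusted p = 0.303). The share of P4ha3 in the summed FPKM of the 3 subunits was 0.18 to 0.93% in Sham, 1.13 to 7.15% in DMSO and 3.8 to 9.21% in A10i mice, and P4ha1 held the largest share in every heart, from 53.8 to 63.8%.

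**Figure D3:**
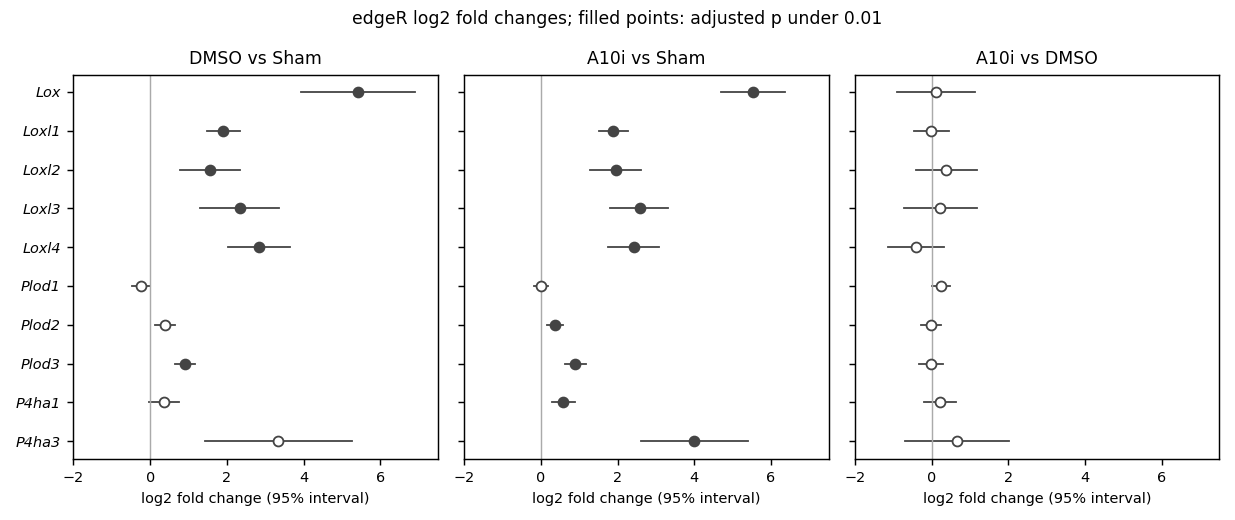
Log2 fold change of each enzyme gene with its 95% interval in DMSO against Sham, A10i against Sham and A10i against DMSO mice (edgeR), with filled points where the adjusted p was under 0.01. In the first and second panel 6 and 9 points are filled, and in the third none is, with each point between -0.41 and 0.66.

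Ordered by mean FPKM, the 10 genes changed rank with MI. In Sham hearts the order was Plod1 (19 FPKM), P4ha1 (13.1), Loxl1 (9.69), Plod3 (8.25), Plod2 (7.3), Loxl2 (4.7), Loxl3 (1.49), Lox (0.656), Loxl4 (0.197) and P4ha3 (0.115), and among neighbours in that order only the last pair overlapped. In DMSO mice Loxl1 (36.5 FPKM) and Lox (28.1) came first, ahead of P4ha1 (16.9) and Plod1 (16.2). In A10i mice it was again Loxl1 (35.9) and Lox (30.4), ahead of P4ha1 (19.5) and Plod1 (19.1). In the MI groups neighbours overlapped, except Loxl3 and the gene below it, and Plod3 and Plod2 in A10i mice, so the finer order there is not resolved. Loxl4 and P4ha3 stayed at the bottom with 1.05 to 1.92 FPKM on average.

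The inhibitor changed none of the 10 genes past the threshold. In A10i against DMSO mice no member had an adjusted p under 0.01, where 0% of the 16793 genes did in either direction, the smallest adjusted p of any gene being 0.048. At an unadjusted p under 0.05, 1 member was higher, Plod1, and 0 were lower, against 7.1% and 6.73% of all genes. The groups overlapped for all 10 members, while they did not for 3.78% (higher) and 4.4% (lower) of all genes. The median log2 fold change of the members was 0.16 and that of all genes 0.003. DESeq2's Wald test, which called 104 genes higher and 123 lower over the whole table, called no member, and neither did limma-voom or any other alternative.

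The intervals say what this comparison could have missed. They were narrow for the hydroxylases with high counts. For Plod2 the log2 fold change was -0.02 (95% interval -0.28 to 0.24), for Plod3 -0.02 (-0.33 to 0.29), for P4ha1 0.21 (-0.20 to 0.63) and for Plod1 0.24 (0.02 to 0.47, edgeR adjusted p = 0.32). A log2 change beyond 0.63 in either direction lies outside these 4 intervals. Loxl1 was similar at -0.01 (-0.47 to 0.44). The others were wide, at 0.12 for Lox (-0.89 to 1.12), 0.38 for Loxl2 (-0.41 to 1.18), 0.22 for Loxl3 (-0.73 to 1.18), -0.41 for Loxl4 (-1.14 to 0.32) and 0.66 for P4ha3 (-0.69 to 2.01), so a 2-fold higher level of Lox lies inside its interval. The sign of the Lox difference turned without A105 (-0.16) or A116 (-0.17), that of Loxl3 did too, and those of Loxl1, Plod2 and Plod3 turned without A129, among other omissions.

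The members varied widely among the infarcted mice of each group. As log2 CPM relative to the mean of the 8 infarcted hearts, A105 lay at -1.38 for Lox, -1.21 for Loxl3, -0.87 for Loxl2 and -2.01 for P4ha3. A129 lay at 1.07, 0.87, 0.57 and 0.96, and A116, which received A10i, at 0.85, 0.98, 0.95 and 1.49. The same mice were thus low or high for most of the genes, and Plod1 to Plod3 followed with smaller steps, between -0.27 and 0.34. Loxl4 departed from this, at 0.13 in A105. A105 was not the lowest heart for P4ha1 and Plod1, where A128 was, at -0.55 and -0.27. For Plod3 the lowest was A119, at -0.21. Some marker lists moved with this pattern, and others did not. The summed activated fibroblast markers lay at -1.03 in A105, 0.36 in A129 and 1.02 in A116, and the macrophage markers at -0.54, 0.23 and 0.75. The cardiomyocyte markers lay at 0.16, -0.43 and -0.16. The summed fibroblast markers were at 1740 CPM in A105, and lowest of the group in A129 (1470) and in A116 (1870). That sum does not stand for each of its genes. Against Sham, the 8 fibroblast markers had a median log2 fold change of 0.24 in DMSO mice, with Gsn at -0.7. Their summed level was lower there, at a median of 1760 CPM against 2100 in Sham mice. Single fibroblast markers were not followed mouse by mouse. The smooth muscle and pericyte markers were at 614 CPM in A105, and also lowest of the group in A129 (523) and in A116 (650). The part of these cell types in the spread of the enzymes was not tested.

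**Figure D4:**
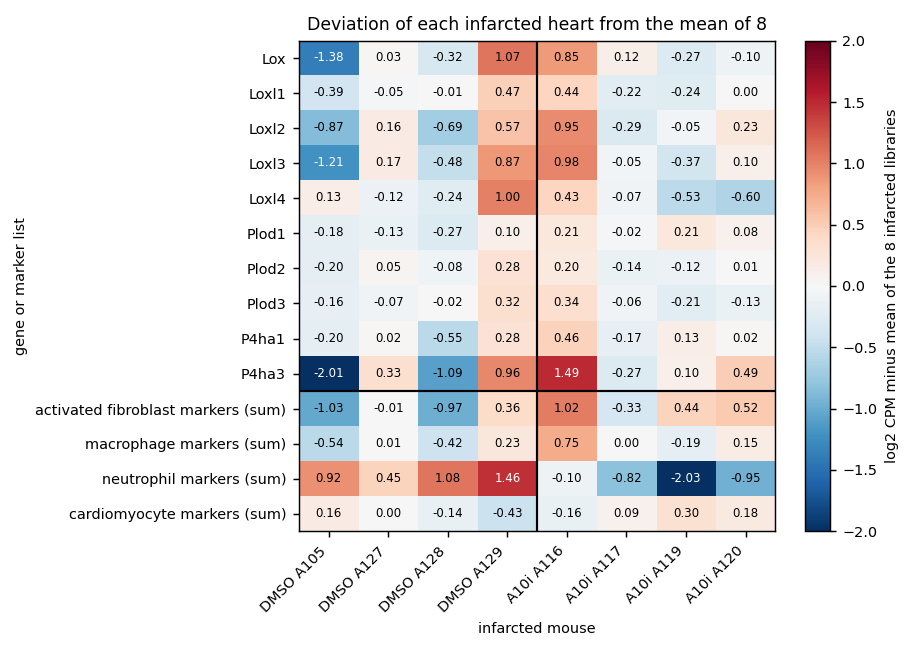
Log2 CPM of each enzyme gene (upper rows) and of each summed marker list (lower rows) minus its mean over the 8 infarcted hearts, 4 DMSO mice on the left and 4 A10i mice on the right. A105 is low and A129 and A116 are high for most enzymes, whereas the neutrophil markers are higher in each DMSO mouse than in each A10i mouse.

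The summed neutrophil markers separated the treatments, while Retnlg and Mmp8 of that list overlapped singly. All 9 had a lower level in A10i than in DMSO mice at an unadjusted p under 0.05, against 6.73% of all genes. None passed 0.01 after adjustment in edgeR, where 0% of all genes did, and the summed levels of the list did not overlap. Among the members, Loxl4 had the log2 fold change most below 0 in that comparison, at -0.41. Its interval of -1.14 to 0.32 included 0 (edgeR adjusted p = 0.627), and the groups overlapped. Over the 8 infarcted hearts, the Pearson r of log2 CPM with the neutrophil sum was 0.67 for Loxl4 and 0.48 for Plod3. With the mean of each treatment group taken off, it was 0.72 for Loxl4, 0.82 for Plod3 and 0.12 for Plod1. A link between Loxl4 or any other member and the neutrophil markers was not tested.

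The substrates of these enzymes rose with them after MI. Of 21 collagen and elastic fibre genes, 13 were higher in DMSO and 20 in A10i than in Sham mice and none was lower, with median log2 fold changes of 1.41 and 1.46. The shares of all genes that were higher were 12.9% and 13.8%. Col1a1 and Col1a2, the chains of type I collagen, had log2 fold changes of 2.85 (adjusted p = 0.00347) and 2.12 (adjusted p = 0.00526) in DMSO mice, and of 3.63 (adjusted p = 0.000203) and 2.90 (adjusted p = 0.000199) in A10i mice. Col3a1, the type III collagen of young scars, had 2.42 (adjusted p = 0.00221) and 2.96 (adjusted p = 8.04e-05). Between A10i and DMSO mice these 3 genes had 0.78, 0.77 and 0.54 (adjusted p = 0.523, 0.451 and 0.555). In that comparison 0 of 21 passed in either direction, where 0% of all genes did.

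Set against collagen, the enzymes differed, also within families. The summed FPKM of each family was divided by the summed FPKM of Col1a1, Col1a2 and Col3a1, which was 54.9 to 64 in Sham, 131 to 574 in DMSO and 392 to 816 in A10i mice. Summed by family, the hydroxylases had a lower ratio to collagen in each MI heart than in each Sham heart. Any gene that rises less than these collagens falls on this ratio. The share of all genes that did so against Sham was not counted. The summed FPKM of the lysyl hydroxylases was 32.3 to 35.9 in Sham, 37.4 to 49.4 in DMSO and 40.5 to 50.4 in A10i mice. That of the prolyl 4-hydroxylase subunits was 22.6 to 23.1, 21.3 to 34.2 and 26.9 to 38.6. The ratio of the lysyl hydroxylases was 56.1 to 62.2% in Sham, 8.62 to 28.5% in DMSO and 6.18 to 10.3% in A10i mice, and that of the prolyl 4-hydroxylase subunits P4ha1 to P4ha3 was 36.1 to 41.1%, 5.95 to 19.1% and 4.73 to 6.86%. P4ha3 by itself did not follow its family, at 0.0651 to 0.373% in Sham, 0.216 to 0.425% in DMSO and 0.261 to 0.436% in A10i mice. Lox was the member whose ratio lay above Sham in every MI heart, from 0.797 to 1.58% in Sham to 6.63 to 9.57% in DMSO and 4.63 to 7.23% in A10i mice.

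The lysyl oxidases as a family lay around the Sham range in DMSO mice and below it in A10i mice. Their ratio was 27, 27 and 32% in S1 to S3. It was 37.7, 21.6, 30.9 and 24.7% in A105, A127, A128 and A129. It was 17.1, 20.2, 15.4 and 18.7% in A116, A117, A119 and A120. Every A10i heart was below every DMSO heart, with the nearest pair at 20.2 and 21.6%. Singly, Loxl1, Loxl2 and Loxl3 did not overlap between the treatments on this ratio, 3 of 10 members, against 7.53% of the 16793 genes tested. Their ranges in DMSO and A10i mice were 8.56 to 20.6% and 5.88 to 7.77% for Loxl1, 3.82 to 6.13% and 3.04 to 3.77% for Loxl2, and 2.06 to 2.41% and 1.22 to 1.82% for Loxl3. In Sham mice Loxl1 was at 15.2 to 18.7%, Loxl2 at 7.26 to 8.62% and Loxl3 at 2.4 to 2.74%. Loxl2 was thus below Sham in every MI heart, like the summed hydroxylases. This measure was chosen after the levels had been seen and carries no test. Neither its numerator nor its denominator was tested as a sum. No single gene in them passed the test between the treatments, where 0% of all genes did. The mean log2 ratio differed by -0.66 (pooled SD 0.28) with the 3 collagens, and by -0.81, -0.74 and -0.50 with Col1a1, Col1a2 or Col3a1 alone, the groups overlapping with Col1a1 alone.

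**Figure D5:**
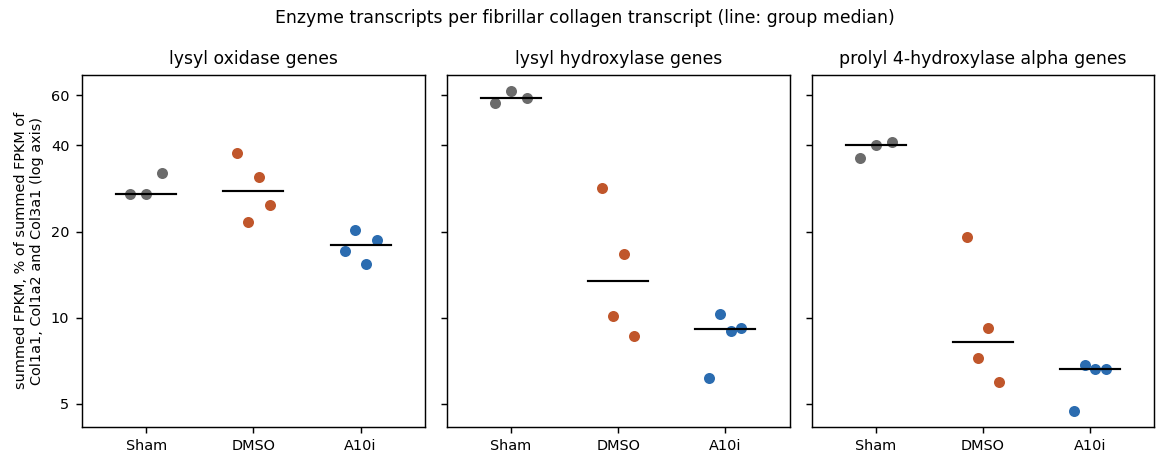
Summed FPKM of each enzyme family as a percentage of the summed FPKM of Col1a1, Col1a2 and Col3a1 (log axis), 1 point a heart, with a line at the group median. Both families of hydroxylases are at 36.1 to 62.2% in Sham hearts and at 28.5% or less after MI, while the lysyl oxidases are at 21.6 to 37.7% in DMSO mice and at 15.4 to 20.2% in A10i mice.

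The partners of these enzymes in making collagen showed a mixed picture. Of 30 listed genes, 12 were higher and 1 lower in DMSO mice, and 18 were higher and 1 lower in A10i mice against Sham. Of all genes, 12.9% were higher and 9.6% lower in DMSO mice, and 13.8% and 9.09% in A10i mice. Between the treatments 0 listed genes passed the test, where 0% of all genes did. The median log2 fold changes were 0.59, 0.59 and 0.08. P4hb, the protein disulfide isomerase that pairs with the P4ha subunits, was 1.95-fold (adjusted p = 0.00107) and 1.83-fold (adjusted p = 0.000418) higher than in Sham mice. Serpinh1, the collagen chaperone HSP47, had log2 fold changes of 0.85 (adjusted p = 0.00653) and 1.11 (adjusted p = 0.00353). Fkbp10, a prolyl isomerase that works with lysyl hydroxylase 2 on the collagen ends, was 2.84-fold (adjusted p = 0.000122) and 2.47-fold (adjusted p = 0.000497) higher. Adamts2, which cuts off the procollagen amino end, was 2.36-fold and 2.78-fold higher (adjusted p = 0.00225 and 5.14e-05). Colgalt2, a galactosyltransferase for hydroxylysine, was the listed gene that fell in DMSO mice, with a log2 fold change of -1.16 (adjusted p = 0.00024) there and of -0.75 (adjusted p = 0.0027) in A10i mice.

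Some other enzymes of the same chemistry were lower after MI. Of 12 listed oxygen and iron dependent hydroxylases outside collagen synthesis, 10 were tested, and 0 were higher and 5 lower than Sham in each MI group, with a median log2 fold change of -0.42 in both. The shares of all genes that were lower were 9.6% and 9.09%. Of 18 genes known to respond to hypoxia, 3 were higher and 1 lower in DMSO mice, and 4 were higher and 0 lower in A10i mice, with medians of 0.34 and 0.19, where 12.9% and 13.8% of all genes were higher. Between the treatments 0 genes of both lists passed, where 0% of all genes did, and the medians were 0.01 and -0.16. The cardiomyocyte sum given above was lower in the same MI hearts, and its part in these counts was not tested.

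Several collagen hydroxylases are textbook targets of the hypoxia-inducible factor, whose core motif is ACGTG or GCGTG. Promoters were read where RefSeq's table for GRCm38.p6 (the assembly of mm10) holds them, for 5 of 10 members: Loxl4, Plod1, Plod3, P4ha1 and P4ha3. The 250 bases before the start are shown 5′ to 3′ on the strand of the gene for the hydroxylase gene with the clearest rise, for the 2 prolyl 4-hydroxylase genes that differ in level and response, and for the lysyl oxidase. Capitals mark each core motif, searched on both strands, so that CACGT and CACGC are the same motifs on the other strand. They lie at chr5:136986769-136987018 (plus strand, Plod3), chr10:59323046-59323295 (plus strand, P4ha1), chr7:100285270-100285519 (plus strand, P4ha3) and chr19:42612807-42613056 (minus strand, Loxl4).
Plod3: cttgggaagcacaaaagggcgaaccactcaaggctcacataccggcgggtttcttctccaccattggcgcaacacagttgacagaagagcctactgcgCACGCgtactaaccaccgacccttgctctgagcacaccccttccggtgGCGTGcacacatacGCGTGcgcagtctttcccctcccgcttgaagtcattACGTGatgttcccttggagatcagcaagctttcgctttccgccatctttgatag
P4ha1: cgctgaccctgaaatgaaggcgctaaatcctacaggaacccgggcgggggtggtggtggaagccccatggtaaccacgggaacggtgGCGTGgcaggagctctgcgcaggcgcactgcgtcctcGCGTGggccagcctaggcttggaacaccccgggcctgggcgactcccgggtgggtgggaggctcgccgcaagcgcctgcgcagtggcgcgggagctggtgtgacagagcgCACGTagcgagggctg
P4ha3: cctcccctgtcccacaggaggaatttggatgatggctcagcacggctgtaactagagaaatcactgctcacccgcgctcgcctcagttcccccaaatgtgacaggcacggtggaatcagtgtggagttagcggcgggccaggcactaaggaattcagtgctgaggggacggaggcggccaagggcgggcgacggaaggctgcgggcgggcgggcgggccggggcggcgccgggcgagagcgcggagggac
Loxl4: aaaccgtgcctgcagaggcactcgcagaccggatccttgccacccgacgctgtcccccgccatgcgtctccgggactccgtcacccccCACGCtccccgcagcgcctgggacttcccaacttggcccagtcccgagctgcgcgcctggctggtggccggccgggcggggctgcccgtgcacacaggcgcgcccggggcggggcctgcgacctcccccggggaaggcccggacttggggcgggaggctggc
Plod3 held 4 matches, P4ha1 3, Loxl4 1 and P4ha3 0, and Plod1 held 1. Of all 32851 promoters in the table, 38.6% held either motif in the same window, 16.6% ACGTG and 28.2% GCGTG. Against Sham, Plod3 and Loxl4 passed the test in both MI groups, P4ha1 and P4ha3 in A10i mice alone, and Plod1 in neither. A part of the motif in these changes was not tested. A match is a description of these letters, and no match says only that the letters are not in this window.

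The genes whose log2 CPM followed the members most closely over all 11 libraries, among 17367 genes, were picked by the highest Pearson r. Tspo, the translocator protein of the outer mitochondrial membrane, was closest to Lox (r = 0.993) and to Loxl1 (0.998). Tmsb4x, thymosin beta 4, was closest to Loxl2 (0.995), Ftl2-ps, a ferritin pseudogene with near-identical copies and therefore uncertain counts, to Loxl3 (0.994), and Ttc9 to Loxl4 (0.994). Nucb2 was closest to Plod3 (0.995), Lig1, a DNA ligase, to Plod2 (0.987), Lmnb2, lamin B2, to P4ha1 (0.967) and Prkch, a protein kinase C, to Plod1 (0.946). Sprr2a1, which has near-identical family members, was closest to P4ha3 (0.989). All points share the step from Sham to MI and the TMM scaling, and the closest of so many genes is high by selection, so these values describe likeness over these libraries and nothing more.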

How the data were processed

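Heart RNA of 4 DMSO, 4 A10i and 3 Sham mice was sequenced. The authors sequenced stranded poly(A) libraries, aligned them to mm10 with GSNAP and counted unique alignments per Ensembl gene with featureCounts 2.0.1. The deposited values are these raw counts, without normalization. The strand setting of the counting is not given in the sources used here. Symbols came from GENCODE M21, which names 55154 of the 55513 identifiers.

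Each pair of groups was fitted alone in R 4.3.3 with edgeR 4.0.16: filterByExpr, TMM, a robust two-sided quasi-likelihood test, Benjamini-Hochberg adjustment over all genes and a threshold of 0.01. Intervals use the t distribution of the fit. To normalize, each count was divided by its library's TMM effective size over the mean of the 11 sizes. The p-values measure the spread between mice. The study's DESeq2 analysis with hypothesis weighting was not repeated. Alternatives were DESeq2 1.42.0, limma-voom 3.58.1, other scalings and filters, a joint fit, a threshold of 0.05 and leaving out each library. The steps were tested on simulated counts.

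The members and gene lists were chosen with earlier results of these data known. All 10 members are named. Of the partners, P4ha2, P4hb and Serpinh1 are named whatever their values, with any past the threshold between the treatments (none) and the 3 with the largest change past it in DMSO against Sham mice. Col1a1, Col1a2, Col3a1 and the gene most alike to each member are named too. Figures were drawn with matplotlib 3.10.9.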

Additional observations from a re-analysis of the deposited data

Results flagged for a closer look

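Of 94 checks of single values within a group of 4 mice (the members, named partners, family sums, shares and ratios to collagen), 6 found a mouse whose gap to the nearest other took a share of the range of the group above Dixon's 95% critical value, and about 1 in 20 is flagged by chance. Many of these checks share genes and mice. A116 had 76600 normalized counts of Col3a1, where the other A10i mice had 44200 to 48600. The same mouse had a summed lysyl hydroxylase level of 50.4 FPKM against 40.5 to 42.2, and a prolyl 4-hydroxylase subunit level of 4.73% of collagen against 6.61 to 6.86%. A117 had a Loxl2 share of 15.3% of the lysyl oxidase FPKM, where the other A10i mice had 19.7 to 20.4%. A119 had a Loxl3 level of 1.22% of collagen against 1.72 to 1.82%. DMSO mouse A105 had a Loxl2 level of 6.13% of collagen, where the other DMSO mice had 3.82 to 4.1%.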

How the results depend on the processing

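No direction of a call was reversed under any alternative. In DMSO against Sham mice, of 139 alternative values of the members 123 stayed on their side of the threshold, 12 lost a call and 4 gained one. Loxl2 and Loxl3 lost theirs with limma-voom (adjusted p = 0.0161 and 0.0227) and without a filter on low counts (0.0627 and 0.0437). P4ha3 passed with DESeq2 (0.00141) and in a joint fit of all 11 libraries (0.00944), and Plod2 without a filter (0.00787). In A10i against Sham mice 124 of 139 stayed and 15 lost a call. Plod2 lost its call with limma-voom (0.012), with DESeq2's size factors (0.0104) and in the joint fit (0.0334), P4ha1 in the joint fit (0.0337), and Loxl2 and P4ha3 without a filter (0.0154 and 0.017). The number of members called was 4 to 7 and 7 to 9 when a library was left out. Between A10i and DMSO mice 150 of 150 values stayed uncalled, and 16 changed sign. P4ha3 could not be fitted in the comparisons with Sham when every library had to reach 10 counts. No paired analysis was possible because the groups share no replicate numbers.

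The counts over all genes moved more. Scaled by library size without TMM, 3330 genes were higher and 708 lower in DMSO and 576 lower in A10i than in Sham mice, and the median of all genes shifted to 0.208 and 0.181. The joint fit gave 931 genes lower in A10i than in Sham mice. At an adjusted p under 0.05 there were 3687 higher and 3145 lower in DMSO and 3688 and 2984 in A10i mice. Leaving out a library gave 921 to 2288 higher and 565 to 1763 lower in DMSO, and 1062 to 2544 and 543 to 1821 in A10i mice, the low ends without a Sham library. Between A10i and DMSO mice, DESeq2 called 104 higher and 123 lower, no filter 18 and 25, the joint fit 2 and 9, a threshold of 0.05 3 and 9, and leaving out a library 0 to 1 in each direction. The cause was not tested beyond these changes of setting. The ratio of lysyl oxidases to collagen differed by -0.50 to -0.81 on the log2 scale with other collagens, and by -0.52 to -0.79 without any 1 mouse, settings added after seeing the data. Depth limited P4ha3 and Loxl4 in Sham mice, with at most 18 and 23 counts.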

Other observations

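The marker lists of the cell types of the heart differed in how many of their genes passed the test against Sham. Over all genes, 12.9% were higher and 9.6% lower in DMSO mice, and 13.8% and 9.09% in A10i mice. Of 8 fibroblast markers, 1 was higher in DMSO and 6 in A10i than in Sham mice and 0 were lower. The median log2 fold changes of these 8 were 0.24 and 0.56. Their summed level was 2000 to 2190 CPM in Sham, 1470 to 2070 in DMSO and 1870 to 2630 in A10i mice. Of 8 endothelial markers 0 were higher in both, and 2 and 1 were lower. Of 6 smooth muscle and pericyte markers 0 and 1 were higher and 3 and 3 lower. Of 7 activated fibroblast markers 4 and 5 were higher, and of 8 macrophage markers 6 and 8. Of 10 cardiomyocyte markers 5 and 3 were lower, and of 9 neutrophil markers 9 and 8 were higher, with median log2 fold changes of 7.22 and 5.27. Of 5 red blood cell genes 0 differed, and their summed level varied from 234 to 3720 CPM in DMSO and from 1040 to 5010 CPM in A10i mice. Between A10i and DMSO mice 0 markers of these lists passed in edgeR, where 0% of all genes did. At an unadjusted p under 0.05, 7.1% of all genes were higher. So were 4 of 8 fibroblast, 3 of 7 activated fibroblast and 4 of 8 macrophage markers. The same held for 2 of 8 endothelial and 2 of 6 smooth muscle and pericyte markers. At the same p, 1 of 8 macrophage and 9 of 9 neutrophil markers were lower, against 6.73% of all genes.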
